A study of Homo sapiens with 45 samples.

Results

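Osteoblast differentiation markers are genes that a mesenchymal cell switches on as it becomes a bone-forming osteoblast and then an osteocyte, the cell embedded in mineralised bone. The 9 genes described here are SP7, ALPL, BGLAP, IBSP, SPP1, DMP1, PHEX, MEPE and DLX5. They were chosen by name, with earlier results of these data known, and are 9 of 41582 genes. The values of all RefSeq transcripts that carry a gene's symbol were added together. The study measured poly(A) RNA in 45 libraries from human tumour cell lines. It had 7 lines of Ewing sarcoma, a cancer that arises mostly in bones and carries an EWSR1 fusion to an ETS factor, and 6 lines of osteosarcoma, a tumour that makes bone matrix. Ewing sarcoma was represented by TC71, SKES1, RDES, MHHES1, A673, EW24 and EW3, and osteosarcoma by SAOS2, U2OS, MG63, KHOS, G292 and HOS-MNNG, each with 3 libraries and no treatment in the labels. A further 6 libraries came from A673 cells that carry sh908, a doxycycline-inducible hairpin against the potassium channel gene KCNN1, with 3 libraries without doxycycline and 3 with it. Each line is a single tumour's culture, HOS-MNNG and KHOS both derive from the HOS line, and the labels do not say whether the 3 libraries of a line came from separate cultures, so the spread between them may be technical.

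Differentiation toward the osteoblast starts with the transcription factors RUNX2 and DLX5 and passes through SP7 (osterix), which committed osteoblast precursors need. ALPL, tissue-nonspecific alkaline phosphatase, removes the mineralisation inhibitor pyrophosphate and is an early marker, whereas IBSP (bone sialoprotein) and BGLAP (osteocalcin) mark matrix-forming and mature osteoblasts. SPP1 (osteopontin), DMP1 and MEPE are acidic, mineral-binding matrix proteins of the same family as IBSP, and DMP1, MEPE and the membrane peptidase PHEX are typical of osteocytes and of phosphate control. Osteosarcomas vary in how far their cells go along this path.

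The main feature of the data was that the markers did not come on together. SAOS2 was the highest osteosarcoma line for DLX5, SP7 and ALPL, MG63 for PHEX and BGLAP, and KHOS for SPP1. No line of either tumour type held more than 3 of the 9 genes at 1 TPM or above. TPM is a level scaled for transcript length and library depth. All 7 Ewing lines held DLX5 and ALPL above that level. IBSP, DMP1 and MEPE were at or close to 0 in all 13 lines.

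Of the members, 4 lie side by side on chromosome 4, in the order DMP1, IBSP, MEPE and SPP1, after DSPP, at chr4:87650280-87664357, chr4:87799554-87812435, chr4:87821398-87846792 and chr4:87975714-87983411 of GRCh38.p14. BGLAP lies at chr1:156242184-156243317, inside the span of the readthrough gene PMF1-BGLAP (chr1:156212988-156243332). ALPL lies at chr1:21508984-21578410, DLX5 at chr7:97020396-97024831, SP7 at chr12:53326575-53344793 and PHEX at chrX:22032325-22251310. RefSeq promoter windows of GRCh38.p14 were matched for 6 of the 9 members, namely SPP1, DMP1, IBSP, MEPE, BGLAP and ALPL. The 250 bases before the start are shown for 5 of them because they set neighbours with very different levels (SPP1 against IBSP and DMP1) beside the 2 genes whose reading depends on the transcript counted (BGLAP and ALPL). All 5 are on the plus strand, at chr4:87975464-87975713 for SPP1, chr4:87650030-87650279 for DMP1, chr4:87799304-87799553 for IBSP, chr1:156241934-156242183 for BGLAP and chr1:21509173-21509422 for ALPL. Capitals mark matches to 3 motifs, on either strand, which are spelled out in the results that follow the sequences.
SPP1 promoter: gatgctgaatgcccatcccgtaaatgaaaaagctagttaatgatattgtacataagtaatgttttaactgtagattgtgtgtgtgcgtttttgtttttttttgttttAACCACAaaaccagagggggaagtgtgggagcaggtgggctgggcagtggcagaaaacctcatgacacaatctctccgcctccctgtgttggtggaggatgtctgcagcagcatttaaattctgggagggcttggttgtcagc
DMP1 promoter: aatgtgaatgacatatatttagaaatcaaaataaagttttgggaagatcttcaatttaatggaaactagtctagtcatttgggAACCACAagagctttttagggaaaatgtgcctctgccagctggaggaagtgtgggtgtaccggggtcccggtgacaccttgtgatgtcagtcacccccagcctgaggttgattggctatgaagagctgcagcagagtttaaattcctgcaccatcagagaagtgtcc
IBSP promoter: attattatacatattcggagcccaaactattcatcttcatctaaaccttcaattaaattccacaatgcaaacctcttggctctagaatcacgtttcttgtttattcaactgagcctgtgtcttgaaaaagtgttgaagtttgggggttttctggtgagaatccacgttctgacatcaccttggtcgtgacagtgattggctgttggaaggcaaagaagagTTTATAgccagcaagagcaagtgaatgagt
BGLAP promoter: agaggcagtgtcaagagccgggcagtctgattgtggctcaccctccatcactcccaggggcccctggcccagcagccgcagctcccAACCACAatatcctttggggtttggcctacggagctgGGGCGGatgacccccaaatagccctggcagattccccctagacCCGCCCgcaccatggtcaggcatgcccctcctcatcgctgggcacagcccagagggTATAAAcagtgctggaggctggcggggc
ALPL promoter: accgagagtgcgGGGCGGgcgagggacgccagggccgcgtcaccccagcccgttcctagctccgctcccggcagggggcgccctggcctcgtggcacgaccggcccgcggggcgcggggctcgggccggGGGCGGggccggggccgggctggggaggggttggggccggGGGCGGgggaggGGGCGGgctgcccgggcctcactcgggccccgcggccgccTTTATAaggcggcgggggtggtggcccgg

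The RUNX motif searched, AACCACA, was found once each in the windows of SPP1, DMP1 and BGLAP, at positions -143, -167 and -164 from the start. It was present in 3 of the 6 member genes with a window and in 3.65% of 35116 RefSeq promoter windows of the same length. A TATA box, searched as TATAAA, lay close to the start of IBSP, BGLAP and ALPL (positions -30, -28 and -29). MEPE held these letters farther from the start, at -208. A match was thus found in 4 of the 6 genes, against 10.7% of all windows. That share, like the others given here, is per window, whereas ALPL and MEPE had several windows each. GC boxes, searched as GGGCGG, were found in the windows of BGLAP (2) and ALPL (4), against 42.6% of all windows. A homeodomain motif, with the letters TAATTA, was found in MEPE alone of the members, against 4.35% of all windows. No marked match overlapped another. ALPL has 3 windows in the RefSeq table and MEPE 2, and the ALPL window shown was picked after its matches were seen, since the other ALPL windows held none of the 4 motifs. The ALPL window shown lies inside the gene span, because an earlier start exists. It was 83.6% G or C (the other ALPL windows 60.4% and 49.6%), the BGLAP window 64.4%, and those of SPP1, DMP1 and IBSP 44.8%, 44.4% and 40%, with a median of 58.0% over all windows. SPP1 and DMP1 carried the same RUNX letters and differed widely in level, as given next. These matches describe letters and do not show binding.

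Total estimated counts per library were 23132161 to 51413254 in the Ewing lines, 15974173 to 44911542 in the osteosarcoma lines and 16619617 to 24818664 in the sh908 libraries. Across genes, the 45 pairs of libraries within groups had Pearson r values of 0.942 to 0.99, and replicate 3 of both sh908 groups stood apart, with r of 0.942 to 0.951 to its fellow libraries against 0.987 and 0.988 between replicates 1 and 2. Replicate 1 of HOS-MNNG stood apart in ALPL, as given there. Markers of other cell types were read from lists. Fibroblast and smooth muscle, chondrocyte and adipocyte markers summed to at most 4201, 226 and 189 TPM in any line. Blood cell, osteoclast and muscle markers summed to at most 109, 86.9 and 4.81 TPM. Of the blood cell markers, PTPRC was at most 1.23 TPM and CD68 at most 108 TPM (KHOS). Their part in the results was not tested.

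**Figure D1:**
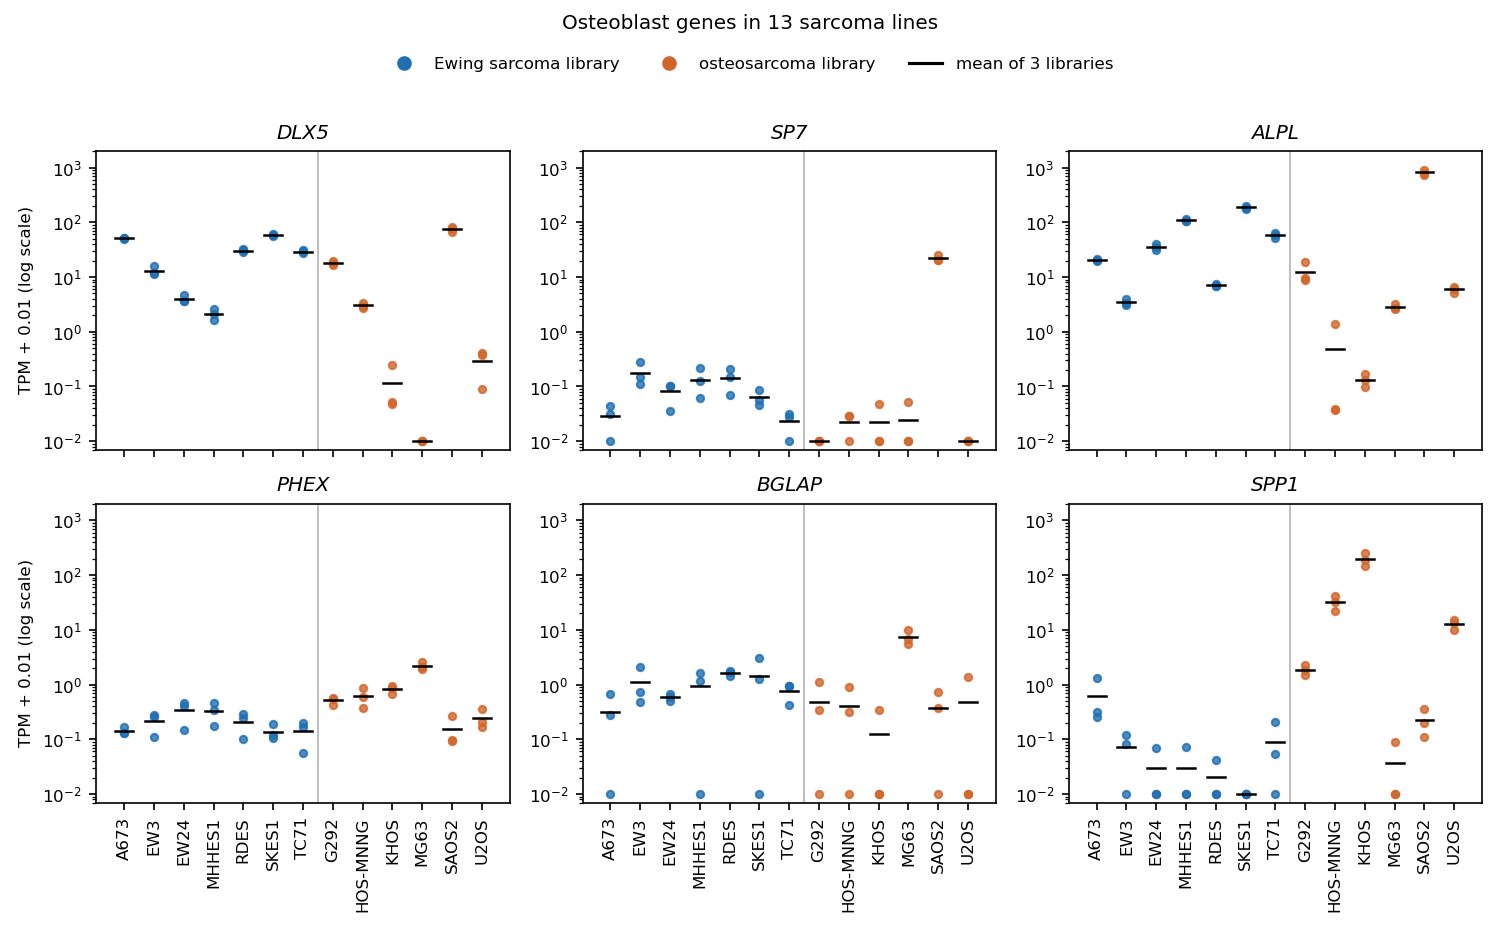
TPM (log scale, with 0.01 added so that values of 0 can be drawn) of 6 markers in each library of 7 Ewing sarcoma lines (blue, left) and 6 osteosarcoma lines (orange, right), with bars at the mean of 3 libraries. SP7 stands out in SAOS2 alone, SPP1 is high in KHOS, HOS-MNNG and U2OS, and ALPL is above 3 TPM in all 7 Ewing lines.

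DLX5, the homeobox factor at the start of the path, was present in all 7 Ewing lines and in 3 of the 6 osteosarcoma lines at 1 TPM or above. SAOS2 was the highest of the 13 lines, with 66.9, 75.0 and 82.8 TPM in its 3 libraries. SKES1 came next with 60.9, 57.5 and 55.9 TPM, and then A673 with 52.7, 48.9 and 52.0 TPM. The libraries of these 3 lines did not overlap. RDES (30.5 ± 1.94 TPM, mean ± SD, n = 3, as in all values written so below) and TC71 (29.2 ± 1.74 TPM) overlapped, followed by G292 with 16.9, 19.7 and 17.96 TPM and EW3 with 15.8, 11.6 and 11.98 TPM. EW24 (3.99 ± 0.633 TPM), HOS-MNNG (3.03 ± 0.346 TPM) and MHHES1 (2.11 ± 0.453 TPM) were low, and their libraries did not overlap in that order. At the bottom, U2OS (0.283 ± 0.177 TPM) and KHOS (0.105 ± 0.112 TPM) overlapped, on 10 and 8 estimated counts over 3 libraries. MG63 had a count of 0 in all 3 libraries, which allows up to 0.0485 CPM (counts scaled to library depth) over the group (3 counts, counting error only).

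DLX6, the neighbouring homeobox gene, followed DLX5 most closely, with a Pearson r of 0.936 in log2(TPM + 1) over the 13 lines among 15702 genes compared, and MED28 came next at 0.877. DLX6 was 12.3 TPM in SAOS2 and 12.8 TPM in SKES1, and 0.0214 TPM in U2OS. It parted from DLX5 in MHHES1, at 0.0594 TPM, where DLX5 was 2.11 TPM. DLX6-AS1, which overlaps this locus, was 5.39 TPM in SAOS2 and at most 1.02 TPM in the Ewing lines. Whether reads were assigned by strand is not given in the sources used here, so reads of overlapping genes on opposite strands may not be separated.

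SP7, the osteoblast-specific zinc finger factor, was above 1 TPM in SAOS2 alone. The 3 SAOS2 libraries held 20.1, 20.7 and 25.4 TPM (910, 937 and 1083 counts). G292 and U2OS had a count of 0, and HOS-MNNG, KHOS and MG63 had 2, 2 and 1 counts over 3 libraries each, so the order of these 5 lines carries no information. The Ewing lines held 86 counts over 21 libraries, from 0.0130 TPM in TC71 to 0.168 TPM in EW3. SAOS2 made up 99.8% of the SP7 TPM summed over the osteosarcoma lines. Its 2 genes with the most similar pattern, the noncoding LOC105375055 (r = 0.999) and LINC00462 (r = 0.998), were likewise highest in SAOS2, at 24.4 and 6.10 TPM there. With a single high line, such an r says only that the other genes peak in the same line. In SAOS2 the SP7 signal was divided between NM_001300837.2 (49.1% ± 11.6 of the gene's TPM) and NM_001173467.3 (45% ± 4.77).

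ALPL reached the highest level of the 9 genes. In SAOS2 its level was 919, 746 and 808 TPM, 66.2 times that of G292, the next osteosarcoma line, and above every Ewing library. G292 held 18.6, 8.99 and 9.77 TPM, U2OS 5.10, 6.53 and 6.10 TPM and MG63 2.69, 3.23 and 2.55 TPM. These 4 lines did not overlap in that order. HOS-MNNG held 1.39, 0.0285 and 0.0265 TPM, that is 63 counts in replicate 1 and 1 count in each of the others. KHOS held 0.0885, 0.122 and 0.156 TPM (4, 6 and 6 counts), within the range of HOS-MNNG. SAOS2 supplied 97.4% of the ALPL TPM summed over the osteosarcoma lines.

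Every Ewing library expressed ALPL at 3.09 TPM or more. SKES1 was the highest with 198, 186 and 178 TPM, and MHHES1 followed with 117, 106 and 107 TPM. TC71 (58.1 ± 5.21 TPM), EW24 (36.1 ± 4.55 TPM), A673 (20.6 ± 0.950 TPM) and RDES (7.09 ± 0.395 TPM) came next without overlap between neighbouring lines of the 13. EW3 was the lowest Ewing line with 3.09, 3.34 and 3.90 TPM and overlapped MG63. SAOS2 lay above all Ewing lines, and the other 5 osteosarcoma lines lay below the 5 highest Ewing lines. The genes with the most similar pattern over the 13 lines were SRPK2 (r = 0.91) and PRADC1 (r = 0.909), whose levels spanned 17.9 to 63.0 and 17.9 to 70.1 TPM.

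The ALPL transcript differed in U2OS. NM_000478.6 held 91.4% ± 1.09 of the ALPL TPM in SAOS2, 82.3% ± 4.16 in G292 and 76.9% ± 1.35 (TC71) to 90.1% ± 8.22 (RDES) in the Ewing lines. In U2OS the model transcript XM_017000903.2 held 100%, 100% and 83.0%, and NM_000478.6 averaged under 1%. Among the other lines drawn, XM_017000903.2 reached 16.2% ± 27.97 in MG63, where a single library held 48.5% and the others 0%, and 12.9% ± 10.8 in A673. U2OS ALPL rests on 160, 181 and 193 counts. ALPP, the placental alkaline phosphatase, was 26.1 TPM in U2OS and 3.86 TPM in SAOS2, so U2OS held more transcript of ALPP than of ALPL. ALPI, the intestinal form, reached 0.647 TPM in SAOS2, and ALPG 0.268 TPM in U2OS. Shares of transcripts are estimates that depend on how reads shared by several transcripts were divided.

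**Figure D2:**
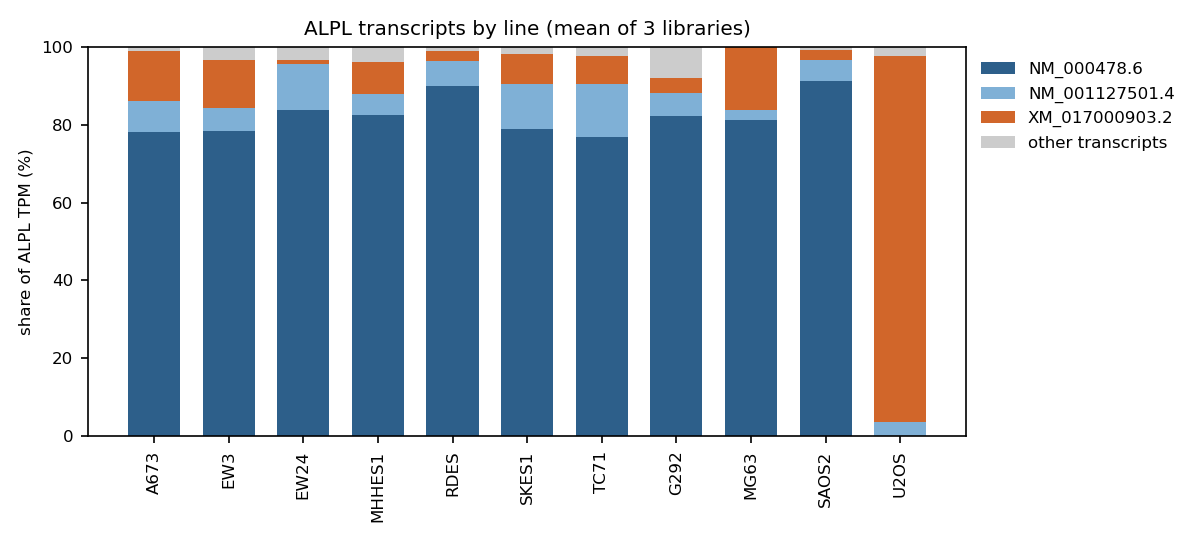
Share of the gene's TPM (percent, mean of 3 libraries) held by each ALPL transcript in 11 lines; HOS-MNNG and KHOS, with 65 and 16 ALPL counts, are not drawn. NM_000478.6 is the main transcript in 10 of the lines, and XM_017000903.2 holds 94.3% in U2OS.

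PHEX, a membrane peptidase whose loss causes X-linked phosphate wasting, was low in all lines and followed another order. MG63 was the highest, with 2.13, 2.63 and 1.90 TPM, and did not overlap any other line. KHOS (0.813 ± 0.148 TPM), HOS-MNNG (0.597 ± 0.242 TPM) and G292 (0.504 ± 0.0788 TPM) overlapped as neighbours, and U2OS (0.237 ± 0.103 TPM) and SAOS2 (0.143 ± 0.101 TPM) overlapped as well. SAOS2, the top line for DLX5, SP7 and ALPL, was the lowest osteosarcoma line for PHEX. The Ewing lines ran from 0.129 TPM in SKES1 to 0.330 TPM in EW24, on 30 to 86 counts per line, and neighbouring lines overlapped throughout. The mean over lines was 0.206 ± 0.0856 TPM in Ewing (SD, n = 7) and 0.752 ± 0.760 TPM in osteosarcoma (SD, n = 6). Most PHEX signal was assigned to model transcripts. In MG63, XM_011545533.2 held 57.05% of the gene's TPM, XM_017029579.2 held 32.75% and NM_000444.6 held 3.64%. In HOS-MNNG and KHOS another model transcript, XM_024452390.2, held 65.6% ± 31.7 and 57.7% ± 39.3. These shares too depend on how shared reads were divided.

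BGLAP, the osteocalcin gene, was above 2 TPM on average only in MG63, with 9.96, 6.68 and 5.56 TPM (32.5, 19.1 and 27.4 estimated counts). RDES (1.62 ± 0.187 TPM), SKES1 (1.44 ± 1.54 TPM) and EW3 (1.10 ± 0.878 TPM) were next, and all lines below MG63 overlapped their neighbours. The SKES1 libraries ran from 3.06 TPM to 0, which shows how few reads lie behind these values. The lowest line was KHOS, with 2.1 estimated counts in a single library. ADGRG7 (r = 0.942) and MIR99AHG (r = 0.94) had the most similar pattern, and their levels were likewise highest in MG63, at 40.2 and 8.12 TPM.

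Most of the signal at the BGLAP locus was assigned to PMF1-BGLAP, a transcript that reads from PMF1 into BGLAP. BGLAP itself made up 31.1% ± 6.57 of the 2 together in MG63 and 2.06% to 9.26% on average in the other 12 lines. PMF1-BGLAP was 13.7 TPM in A673 to 27.6 TPM in EW24 among the Ewing lines, with a mean of 18.3 ± 4.69 TPM (SD, n = 7). In the osteosarcoma lines it was 3.71 TPM in KHOS to 16.3 TPM in MG63, with a mean of 7.25 ± 5.05 TPM (SD, n = 6). Its difference between the tumour types, a log2 fold change of 1.199 (SE 0.44), had an adjusted p of 0.0817 by edgeR's quasi-likelihood test with Benjamini-Hochberg adjustment. PMF1 was higher in the Ewing lines, at 145 ± 13.5 TPM (SD, n = 7) against 82.7 ± 13.6 TPM (SD, n = 6), with a log2 fold change of 0.66 (SE 0.18, edgeR adjusted p = 0.0289). BGLAP and the end of PMF1-BGLAP share sequence, so how reads were divided between them is uncertain.

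**Figure D3:**
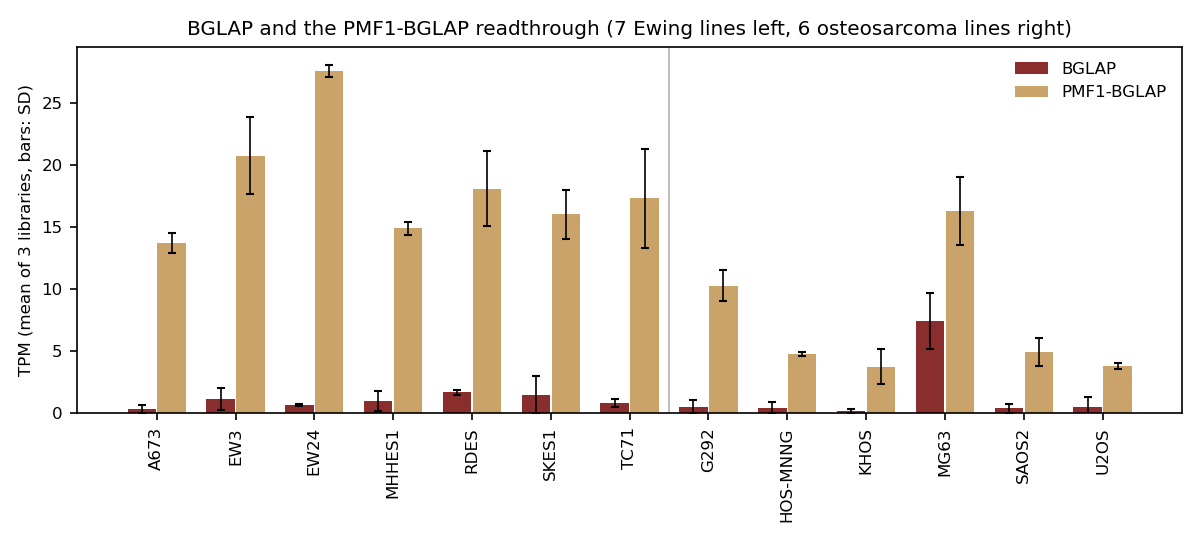
TPM (mean of 3 libraries, bars show the SD) of BGLAP and of the readthrough PMF1-BGLAP in 7 Ewing lines (left) and 6 osteosarcoma lines (right). BGLAP is highest in MG63 at 7.40 TPM, and PMF1-BGLAP exceeds BGLAP in every line.

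SPP1, the osteopontin gene, was high in the HOS-derived lines. KHOS held 257, 145 and 188 TPM (7277, 4198 and 4941 counts), and HOS-MNNG 32.7, 42.2 and 21.97 TPM. U2OS held 9.77, 15.2 and 13.5 TPM, and G292 1.80, 1.48 and 2.28 TPM. These 4 lines did not overlap in that order, and KHOS was 6.09 times HOS-MNNG, although both come from HOS. SAOS2 had 13 counts over its 3 libraries (0.213 ± 0.128 TPM) and MG63 a single count, so the 2 lines that led for ALPL and BGLAP had almost no SPP1.

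In the Ewing lines SPP1 was close to absent, with 56 counts over 21 libraries against 19825 over the 18 osteosarcoma libraries. A673 held 43 of them, with 7, 30 and 6 counts (0.249, 1.29 and 0.306 TPM). The other 6 Ewing lines were at 0.0809 TPM or below, and SKES1 had a count of 0. NM_001040058.2 was the main SPP1 transcript in the 4 high lines, with 77.7% ± 1.22 of the TPM in KHOS, 75.5% in HOS-MNNG, 80.6% in U2OS and 67.2% in G292 on average. The genes most like SPP1 over the 13 lines were the noncoding LOC101928352 (r = 0.992) and FGD5 (r = 0.974), with 6.23 and 35.4 TPM in KHOS and 0.0537 and 0.0180 TPM in MG63.

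The other matrix members were barely detected. IBSP had 12, 5 and 6 counts in SAOS2 (0.566, 0.237 and 0.298 TPM) and 2, 12 and 6 in G292, 2 counts in each of U2OS and EW3, and 0 in the other 9 lines. DMP1 had 8 counts in the 21 Ewing libraries and 8 in the 18 osteosarcoma libraries, of which G292 held 5. MEPE had a count of 0 in all 21 Ewing libraries and 6 counts in the osteosarcoma libraries, 5 of them in SAOS2 and 1 in HOS-MNNG. At this depth no difference among lines can be read from DMP1 or MEPE. In KHOS, where SPP1 was highest, its neighbours on chromosome 4 (IBSP, DMP1 and MEPE) all had a count of 0.

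The 6 osteosarcoma lines were ranked for the 6 members that reached 1 TPM in at least 1 of them. The mean rank was 3.17 for SAOS2, 3.25 for G292, 3.33 for HOS-MNNG and MG63, 3.92 for U2OS and 4 for KHOS. These means include ranks that rest on few reads: for SP7 the 5 lines below SAOS2 had 0 to 2 counts, and for BGLAP the lines below MG63 overlapped their neighbours. Without SP7 the means ran from 2.8 (G292) to 4 (KHOS). Places also differed between genes. SAOS2 was 1st for DLX5, SP7 and ALPL and 6th, 5th and 5th for PHEX, BGLAP and SPP1, and KHOS was 1st for SPP1 and 6th for ALPL and BGLAP. Leaving out DLX5, SP7 or ALPL put MG63, G292 or HOS-MNNG first in turn. SAOS2 was 1st, once tied with MG63, without PHEX, BGLAP or SPP1, with log2 CPM in place of TPM, with a threshold of 5 TPM and with each replicate left out. No order of the 6 lines held under all of these choices.

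**Figure D4:**
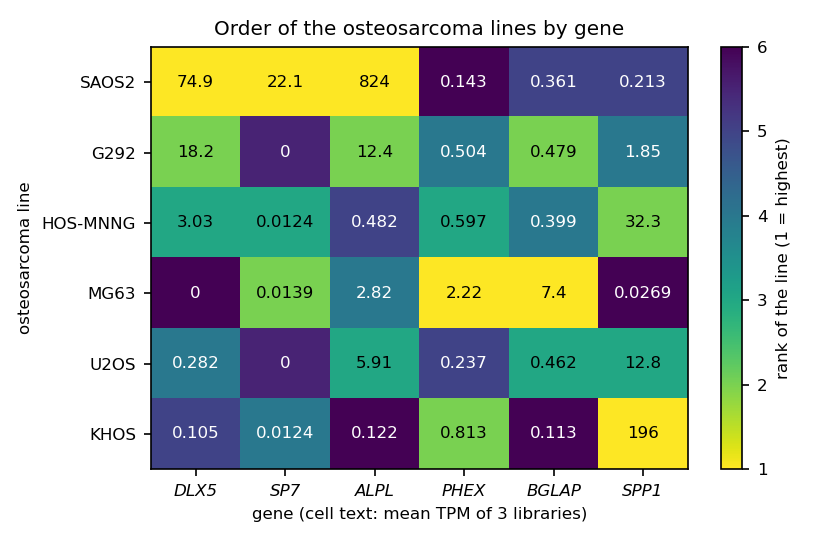
Rank of the 6 osteosarcoma lines (colour, 1 = highest) for each of 6 markers, with the mean TPM of 3 libraries printed in each cell. SAOS2 leads for DLX5, SP7 and ALPL and is low for PHEX, BGLAP and SPP1.

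Across the osteosarcoma lines, the SD of log2(TPM + 1) was 3.47 for ALPL, 2.99 for SPP1, 2.57 for DLX5 and 1.84 for SP7, against a median of 0.57 over 22058 genes. These values were larger than those of 99.8%, 99.5%, 99.0% and 95.7% of the genes, whereas BGLAP was above 83.2% and PHEX above 45.2%. Among the Ewing lines only ALPL (SD 1.96, above 98.7% of genes) and DLX5 (1.66, above 97.4%) were this variable. BGLAP, SPP1, PHEX and SP7 were above only 35.3%, 19.6%, 7.4% and 6.4%. These genes reached at most 1.62, 0.617, 0.330 and 0.168 TPM in an Ewing line, which keeps this SD small whatever their relative spread. SPP1, PHEX and SP7 reached 1 TPM, the level for entry, only in osteosarcoma lines. PHEX, at most 2.22 TPM in osteosarcoma, has the same limit there. An F test of any difference among the 18 osteosarcoma libraries called 6 of the 6 members tested, but it called 95.2% of all genes, so the count is no result about the members. Over the 13 lines, pairs of these 6 genes had a Pearson r from -0.69 (DLX5 with PHEX) to 0.63 (DLX5 with ALPL). These correlations are over lines that share tumour type and are given as a description.

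Between the tumour types, SPP1 and PHEX were lower in the Ewing lines, and the other tested members did not pass the test. Of 22000 genes tested with the 3 libraries of a line added together, 14.4% were called at an edgeR adjusted p under 0.05, with 8.4% lower in Ewing and 5.96% higher. The low-count filter kept 5 of the 9 members, and 2 of these were called, both lower. SP7, IBSP, DMP1 and MEPE were removed by the filter. SPP1 had a log2 fold change of -8.71 (SE 2.06) in Ewing over osteosarcoma and an adjusted p of 0.0138. Without KHOS, which held 80.6% of the SPP1 TPM summed over the osteosarcoma lines, the log2 fold change was -6.36 (edgeR adjusted p = 0.0326). PHEX had a log2 fold change of -2.04 (SE 0.59) and an adjusted p of 0.0348. The TPM of lines overlapped between the types for all 9 members, against 5.58% of tested genes without overlap, because A673 was above SAOS2 and MG63 for SPP1 and EW24 was above U2OS and SAOS2 for PHEX. The low-count filter removed SPP1 without A673, without replicate 1 of every line or without replicate 3, and each edgeR fit that tested SPP1 called it. Limma-trend on log2(TPM + 1) of the line means called neither SPP1 (adjusted p = 0.0806) nor PHEX (adjusted p = 0.143). PHEX lost its call (edgeR adjusted p = 0.0511 to 0.0834, log2 fold change -2.07 to -1.42) when A673, EW3, RDES, SKES1, TC71, HOS-MNNG, KHOS or MG63 was left out, and also with HOS-MNNG and KHOS summed to 1 line (-2.005, edgeR adjusted p = 0.0562).

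DLX5, ALPL and BGLAP had log2 fold changes of 0.85 (SE 1.40, adjusted p = 0.73), -1.14 (SE 1.55, adjusted p = 0.671) and -0.84 (SE 0.80, adjusted p = 0.525) in the edgeR fit. The DLX5 value was 2.57 without SAOS2 (edgeR adjusted p = 0.272). The direction for ALPL turned on SAOS2 and on the scale. Without SAOS2 its edgeR log2 fold change was 3.78 (SE 1.24, adjusted p = 0.0624), that is higher in Ewing. With SAOS2 kept, its difference of mean log2(TPM + 1) over lines was already positive, at 1.86. The direction for BGLAP also turned on a line and on the scale, with an edgeR log2 fold change of 1.11 without MG63. With MG63 kept, the BGLAP difference of mean log2(TPM + 1) was positive but small, at 0.06. DESeq2 called 24.6% of all genes and the same 2 members, SPP1 and PHEX, and gave no p-value for ALPL and BGLAP. A voom fit over the 39 libraries, in which line was the random term, called 20.7% of genes and 2 members, SPP1 and DLX5, the latter higher in Ewing (log2 fold change 3.59, adjusted p = 0.0104). With the replicate block added it called 20.4% of genes and the same 2 members, with an adjusted p of 0.0139 for DLX5 and 0.26 for PHEX. Both voom fits count the libraries of a line separately, with a single correlation for all genes. Their p-values can thus be too small where libraries of a line are very alike. Over line values limma-trend did not call DLX5, with adjusted p of 0.244 on log2(TPM + 1) and 0.165 on log2(TPM + 0.1).

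**Figure D5:**
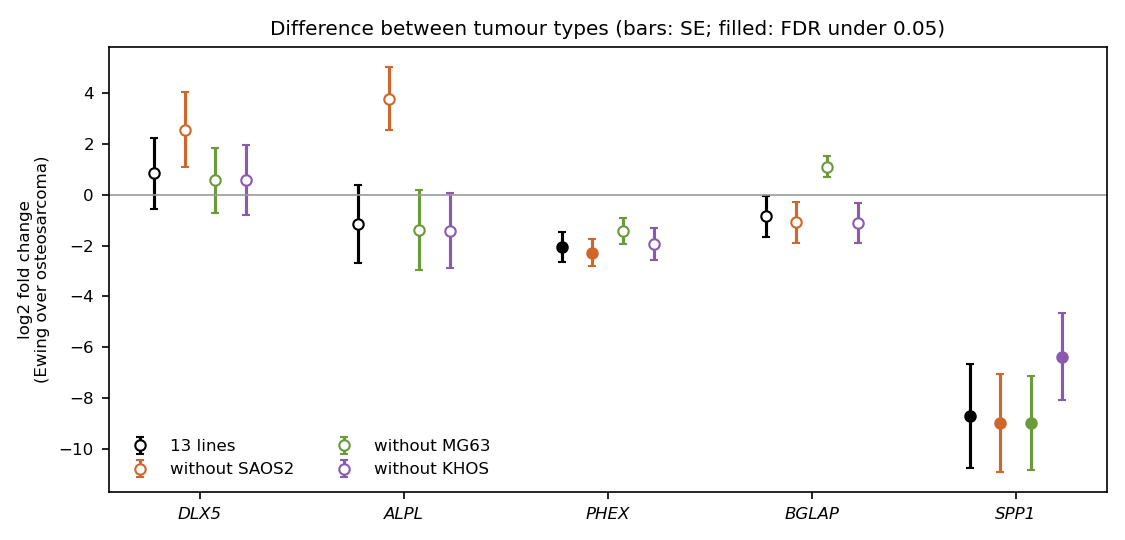
Log2 fold change (Ewing over osteosarcoma, bars show the SE) of the 5 members tested by edgeR, over 13 lines and without SAOS2, MG63 or KHOS; filled points have an adjusted p under 0.05. SPP1 stays below 0 and filled in all 4 fits, whereas ALPL moves from -1.14 to 3.78 without SAOS2.

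All 9 members could be compared by 2-sided exact permutation tests over all ways to split the 13 lines, on the difference of mean log2(TPM + 1) and with no adjustment over the genes. SPP1 (difference -2.91, p = 0.00641) and PHEX (difference -0.45, p = 0.0169) were lower in Ewing by the exact test. The same exact test gave a p under 0.05 for 21.7% of the 37387 genes above 0 TPM in a line, so 2 of 9 members is a count near the background. DLX5 (2.01, p = 0.117), ALPL (1.86, p = 0.248), SP7 (-0.65, p = 0.659), BGLAP (0.06, p = 0.946) and IBSP (-0.13, p = 0.0699) did not pass the exact test at 0.05. IBSP passed (-0.16, exact p = 0.0455) with HOS-MNNG and KHOS averaged, or without HOS-MNNG, KHOS or MG63, on the 2 counts of the Ewing lines against 45. DMP1 (p = 0.804) and MEPE (p = 0.192) did not pass the exact permutation test either, with differences of -0.0024 and -0.0172. For DLX5, ALPL and SP7, leaving out SAOS2, their highest osteosarcoma line, moved the differences to 2.83, 3.17 and 0.10 (exact permutation p = 0.024, 0.0164 and 0.0189), and no other line left out brought the exact p of these genes under 0.05. For BGLAP, leaving out MG63, its highest line, moved the difference to 0.50 (exact p = 0.0189). Since each of these lines was the extreme for the gene, these values show how far a single line sets the comparison and are not tests of a difference. The sum of BGLAP and PMF1-BGLAP, which in 12 lines was nearly all readthrough, was higher in Ewing by 1.30 (exact p = 0.00932), whereas edgeR did not call it (log2 fold change 1.11, adjusted p = 0.117).

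Other genes of the osteoblast programme were read from lists, chosen with earlier results of these data known. Counts from these lists are therefore a description. Over all genes tested the median log2 fold change was -0.06, with 5.96% called higher and 8.4% lower, and the counts below stand beside these shares. Of 12 osteoblast regulators tested, 0 were called higher and 4 lower in Ewing, with a median of -0.07. RUNX2, the master regulator of the lineage, was called lower (log2 fold change -5.11, SE 1.02, edgeR adjusted p = 0.00578), at 0.0223 TPM (RDES) to 6.77 TPM (SKES1) against 0.390 TPM (MG63) to 11.6 TPM (U2OS) in 5 osteosarcoma lines and 187 TPM in SAOS2. The types thus overlapped for RUNX2, and without SAOS2 its log2 fold change was -3.82 (edgeR adjusted p = 0.011). FOSL1, an AP-1 subunit, was also lower (-5.73, SE 1.11), with its highest level in KHOS at 549 TPM. Of 11 bone collagen and matrix genes tested, 0 were higher and 2 lower, with a median of -2.17. These 2 were COL1A1 (-4.29), the main collagen chain of bone, at 3192 TPM in SAOS2, and LUM (-6.60), at 1358 TPM in G292 and 0.0200 TPM in KHOS. COL1A1 lost its call without SAOS2 (-3.42, edgeR adjusted p = 0.052). LUM lost its call without G292 (-4.64, edgeR adjusted p = 0.104), and also without SAOS2 or any of the 7 Ewing lines in turn (0.0591 to 0.0799), where its log2 fold change stayed at -7.21 to -6.38.

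Of 11 mineral and phosphate handling genes tested, 2 were higher and 2 lower, with a median of -0.64. PHOSPHO1, a phosphatase that frees phosphate inside matrix vesicles and works beside ALPL, was higher in Ewing without overlap, at 25.1 TPM (EW3) to 256 TPM (SKES1) against 0.0523 TPM (MG63) to 1.69 TPM (U2OS). Its log2 fold change was 6.74 (SE 0.83, edgeR adjusted p = 0.000313). SKES1 and EW3 were also the highest and lowest Ewing lines for ALPL. AHSG was the other gene called higher (4.97), at low levels of 0.170 to 4.59 TPM in Ewing against at most 0.191 TPM. ANKH (-3.13), a pyrophosphate transporter, and SLC20A1 (-1.72), a phosphate transporter, were lower. Of 8 osteocyte genes tested, with a median of -1.30, SPARCL1 was higher (3.0), at no more than 1.97 TPM in any line. TNFRSF11B (-8.15, and -6.18 without MG63), which encodes osteoprotegerin, and DKK1 (-6.96, and -6.34 without MG63), a WNT antagonist, were lower. Both peaked in MG63, at 271 and 302 TPM, as PHEX and BGLAP did. Of 12 receptors of osteoblasts, 2 were higher (FZD1, 1.60, and EPHB4, 0.79) and 1 lower (VDR, the vitamin D receptor, -3.24), with a median of 0.45.

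In A673 cells with the sh908 hairpin, the targeted gene KCNN1 was with doxycycline at 26.9%, 38.9% and 43.1% of its level in the same-numbered library without it. An exact permutation test of these 3 against 3 libraries gave p = 0.1, the smallest it can give. Of 14252 genes tested, edgeR called 0, or 0.0%, at an adjusted p under 0.05, with 94 at an unadjusted p under 0.05, and DESeq2 called 2. Without replicate 3 of both groups, which stood apart, 28 genes were called. ALPL, DLX5 and SPP1 passed the low-count filter, and none was called in any of these fits. KCNN1 itself was 37.8, 35.3 and 17.99 TPM without doxycycline, so replicate 3 was also low for the targeted gene. ALPL was 17.8, 18.97 and 23.3 TPM without doxycycline and 5.94, 13.9 and 16.3 TPM with it, so the libraries did not overlap (exact permutation p = 0.1), which held for 3.65% of genes tested. Its log2 fold change was -0.73 (SE 0.30, edgeR adjusted p = 1), and -0.78 with the replicate number as a block (adjusted p = 0.218), a fit that called 0.512% of genes. Without induced replicate 1, the lowest library, it was -0.48. The uninduced libraries held 28.9, 27.8 and 44.5 TPM of DLX5 and the induced ones 23.7, 25.4 and 34.7 TPM, with overlap (log2 fold change -0.24, edgeR adjusted p = 1). Within pairs DLX5 was lower in 3 of 3, at 82.2%, 91.3% and 78.0% of the uninduced library (edgeR adjusted p = 0.354 with the block). For SPP1 the values were 2.53, 1.31 and 0.528 TPM uninduced and 2.83, 2.20 and 2.21 TPM induced, also with overlap (log2 fold change 0.68, edgeR adjusted p = 1). Within pairs SPP1 was higher in 3 of 3, at 112%, 168% and 418% (adjusted p = 0.338 with the block), and its log2 fold change was 0.21 without uninduced replicate 3, 1.41 without uninduced replicate 1 and 0.41 without replicate 3 of both groups. MEPE and IBSP had a count of 0 in these 6 libraries.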

How the data were processed

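The authors deposited 1 table per library for 45 poly(A) RNA libraries. Its rows are 177816 RefSeq transcripts, and per the file headers it gives an estimated count (an expected count, not scaled for depth) and a TPM value, which the authors scaled for effective length and depth. The submitters' processing notes name fastp 0.19.5, kallisto 0.46.2, hg38 and GRCh38.p14, with no options. Transcripts were joined to genes through the RefSeq annotation of GRCh38.p14 by accession without version, which matched 169966 (95.6%). The 7850 others held 0.915% to 1.60% of a library's counts and were left out. Counts and TPM were summed over a gene's transcripts.

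Counts were rounded, filtered with filterByExpr, scaled with TMM and fitted with edgeR 4.0.16 (quasi-likelihood, robust), and genes with a Benjamini-Hochberg adjusted p under 0.05 over all genes were called. The tumour types were compared over 13 lines, with the 3 libraries of a line added. Differences among osteosarcoma lines used 18 libraries, and doxycycline 3 against 3. Members were also compared by exact permutation of log2(TPM + 1). Alternatives used DESeq2 1.42.0, limma 3.58.1 (trend and voom), other scalings, pseudocounts of 0.1 and 5 TPM, no filter, and lines, replicates or members left out. The scripts were tested on simulated data, under R 4.3.3 and Python 3.11.15.

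The members and the 11 gene lists (6 of them of other cell types, reported in the closing section) were chosen with earlier results of these data known. Named genes were all 9 members, for each list up to 2 called genes in each direction with the largest fold change, for each member with a mean of at least 5 TPM in a line the 2 genes with the highest Pearson r over 13 lines, readthrough and related genes, and KCNN1. PTPRC, outside this rule, is given as a defining gene of blood cells. Same-numbered sh908 libraries deviated together, with correlations of 0.683, 0.582 and 0.881 of their deviations from the group means. The numbers were therefore used as pairs in an alternative, although replicate 3 carried most of this, since replicates 1 and 2 also correlated across numbers at 0.608 and 0.517. Promoter motifs were counted on both strands in the 250 bases before RefSeq starts. P-values measure only the spread between these samples. Intervals and floors of 3 counts cover counting error only.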

Additional observations from a re-analysis of the deposited data

Results flagged for a closer look

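In 6 of 17 groups of lines tested for a single sample far from the others (Dixon's gap test at 95%, on log2(TPM + 1) of line means), the highest line stood apart. MEPE in the Ewing lines, at 0 throughout, could not be tested. Chance flags about 1 in 20 such groups where values are close to normal, a rate that does not apply to groups that are mostly 0, such as IBSP, DMP1 and MEPE. On unlogged TPM the same test also set apart DLX5 (74.9 TPM) and ALPL (824 TPM) in SAOS2, PHEX (2.22 TPM) in MG63 and SPP1 (196.5 TPM) in KHOS. SP7 was 22.1 TPM in SAOS2 against 0.0139 TPM in MG63, the next osteosarcoma line, and BGLAP was 7.40 TPM in MG63 against 0.479 TPM in G292. Among the Ewing lines, SPP1 was 0.617 TPM in A673, of which replicate 2 held 30 of 43 counts, against 0.0809 TPM in TC71. The other 3 rest on 5 counts or fewer each: IBSP at 0.0278 TPM in EW3 (2 counts), DMP1 at 0.0330 TPM in G292 (5 counts) and MEPE at 0.0627 TPM in SAOS2 (5 counts).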

How the results depend on the processing

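Between the tumour types, DESeq2 called 5404 genes where edgeR called 3159. The 2 members called became 0 by limma-trend on log2(TPM + 1), which called 11.9% of all genes, 1 when 0.1 TPM was added instead (13.6% of genes), 1 with HOS-MNNG and KHOS summed (12.4% of genes; PHEX lost, adjusted p = 0.0562), and 0 to 2 with a line or replicate left out (2296 to 3177 genes). PHEX was called by none of the limma and voom fits, and SPP1 by all but limma on log2(TPM + 1) (adjusted p = 0.0806), with 0.0363 under the replicate block. The log2 fold change of ALPL turned positive with limma (1.86 and 2.50), with voom (2.79, and 2.49 with the replicate block) and without SAOS2 (3.78, range -1.76 to 3.78 over samples left out). That of BGLAP turned positive with limma (0.059 and 0.46), with voom (0.20, and 0.54 with the replicate block), with PMF1-BGLAP added (1.11) and without MG63 (1.11, range -1.11 to 1.11). Within the voom fit the replicate block changed no direction and no call of a member, and among the osteosarcoma lines 6 of 6 members were called with it, beside 20800 of 21915 genes.

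In the permutation tests, 2 members passed beside 21.7% of genes above 0 TPM, and 2 to 5 passed with a line left out, beside 18.8% to 21.3%. Differences changed sign for SP7 without SAOS2 (0.10, range -0.80 to 0.10), for BGLAP with a pseudocount of 5 TPM (-0.0522), with HOS-MNNG and KHOS averaged (-0.055) or with lines left out (range -0.0861 to 0.4972), and for DMP1 (range -0.0075 to 0.0042). With doxycycline, the replicate block raised the calls from 0 to 73, DESeq2 to 2 and leaving out replicate 3 of both groups to 28, none of them members. Of 6 places in the order of osteosarcoma lines, log2 CPM kept 1, and leaving out DLX5, SP7, ALPL, PHEX, BGLAP or SPP1 kept 0, 2, 0, 4, 1 or 3, a threshold of 5 TPM kept 4, and a replicate left out kept 1 to 4. Leaving out replicate 3 of both sh908 groups together, and leaving out HOS-MNNG replicate 1, were choices made after seeing the data. Without HOS-MNNG replicate 1, 3153 genes and the same count of 2 members were called. The cause of these changes was not tested, apart from the removal of SPP1 by the low-count filter. Depth limits BGLAP, IBSP, DMP1, MEPE and, outside SAOS2, SP7.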

Other observations

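Genes of neighbouring lineages were compared between the tumour types, where 5.96% of all genes were called higher in Ewing and 8.4% lower. The lists of these genes were also chosen with earlier results of these data known. Of 8 chondrocyte markers tested, SOX6, a cartilage transcription factor, was higher in Ewing (log2 fold change 5.24, SE 0.89, edgeR adjusted p = 0.00242). Its level was 8.02 TPM (A673) to 29.3 TPM (RDES) against 0.0306 TPM (KHOS) to 1.32 TPM (U2OS). CHAD was lower (-2.02), at no more than 1.06 TPM in any line. Of 4 adipocyte markers tested, PPARG, the regulator of fat cell formation, was lower in Ewing (-6.54, SE 0.91, edgeR adjusted p = 0.000766), with its highest level in G292 at 185 TPM and its lowest among osteosarcoma lines in MG63 at 9.89 TPM. Of 7 fibroblast and smooth muscle markers tested, PDGFRA (-6.78) and S100A4 (-4.54) were lower, and both peaked in MG63, at 187 and 3908 TPM.

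Of 5 osteoclast markers tested, CTSK, a collagen-degrading protease, was higher in Ewing (3.04), with 69.8 TPM in SKES1. Of 3 blood cell markers tested, CD68 (-4.19) and CD14 (-3.28) were lower, with CD68 at 108 TPM in KHOS and CD14 at 9.87 TPM in MG63. None of 2 muscle markers tested was called by edgeR. The median log2 fold changes were -0.95 for chondrocyte, 0.63 for adipocyte, -1.22 for fibroblast, 0.05 for osteoclast, -3.28 for blood cell and -1.36 for muscle markers, against -0.06 over all genes tested.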
